A study of Mus musculus with 8 samples.

Results

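The brown fat of control mice is described here from the 4 libraries titled WT, of 8 libraries in the series. They were chosen by their sample titles alone. Each came from tissue labelled brown adipose tissue of a C57BL/6J mouse that carried floxed Nampt alleles (flox/flox) without Cre, was labelled wild type, and lived at room temperature on regular chow. RNA was depleted of rRNA before sequencing. Nampt makes nicotinamide mononucleotide, the precursor of NAD+, from nicotinamide. The remaining 4 mice had Nampt deleted in adipocytes by adiponectin-Cre, and their libraries were not analysed here. The series design names 4 control mice, so each library stands for 1 animal. The age and sex of the mice were not part of the labels used. All control mice carried the floxed allele, so an unmodified C57BL/6J level is not part of these data.

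Brown fat burns fuel to make heat. Uncoupling protein 1, encoded by Ucp1, lets protons return across the inner mitochondrial membrane without making ATP, so the tissue is packed with mitochondria and takes up, makes and burns large amounts of fatty acid. Noradrenaline from sympathetic nerves drives this through beta-adrenergic receptors, cyclic AMP and protein kinase A, and the same signal raises the transcription of thermogenic genes.

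Levels are given as counts per 1000000 counts outside rRNA rows (CPM) and as that value per kb of gene length (RPKM), which is the scale for comparing one gene with another. The libraries held 21771276, 27404629, 37309875 and 49697156 counts in WT1, WT2, WT3 and WT4, and 3 counts correspond to 0.142, 0.113, 0.0833 and 0.0626 CPM. Rows of rRNA genes held 2.83% to 3.53% of the counts and protein-coding genes 96.6% to 96.8% of the rest. The libraries did not stand at equal distances from each other. Among 8631 protein-coding genes whose mean reached 10 CPM, 69 were 2-fold or more apart between WT1 and WT2 (0.799%) and 52 between WT3 and WT4 (0.602%). Between WT1 and WT3 there were 468 such genes (5.42%), between WT1 and WT4 378 (4.38%), between WT2 and WT3 215 (2.49%), and between WT2 and WT4 144 (1.67%). WT1 and WT2 were also the shallower libraries and held the most skeletal muscle RNA, so depth, muscle RNA and the distance between mice cannot be told apart. For this reason levels are given for every mouse, and no p-value is given: all 4 libraries form 1 group with nothing to be tested against.

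The tissue label held for the 5 marker genes in every library. Ucp1 (ENSMUSG00000031710, chromosome 8, 83290348 to 83298456, plus strand, GRCm38) stood at 3217, 4044, 8034 and 6810 CPM in WT1, WT2, WT3 and WT4. It was lowest in WT1, and its highest value was 2.50 times its lowest. Scd1 (ENSMUSG00000037071, chromosome 19, 44394451 to 44407709, minus strand), which puts the double bond into stearoyl-CoA, read 34836, 17968, 13574 and 17843 CPM and so was highest in the mouse with the least Ucp1. The other markers were steadier. Fabp4 (ENSMUSG00000062515), the fatty acid carrier of adipocytes, stood at 5485 ± 447 CPM, Cidea, a lipid droplet protein of brown fat, at 1911 ± 169 CPM, and Adipoq (ENSMUSG00000022878), the adipocyte hormone adiponectin, at 1043 ± 68.1 CPM (SD, n = 4 each). In whole tissue, fewer cells of a type and less RNA per cell cannot be told apart.

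Marker genes of other cell types were summed per list. The lists differ in length, and their sums do not measure the number of cells of a type. Apart from muscle, the endothelial list had the highest sum: its 12 markers held 0.171 ± 0.00988% of counts. Kdr, the main receptor for vascular endothelial growth factor, led them at 329 ± 22.4 CPM. The 9 mural cell markers, which mark pericytes and smooth muscle, summed to 0.131 ± 0.00566%, led by Rgs5 at 715 ± 30.7 CPM. The 11 fibroblast and progenitor markers summed to 0.127 ± 0.022%, above the mural list in WT1 and WT2. Macrophage markers summed to 0.0159% to 0.0215% in the 4 libraries, with Lyz2 highest at 38.5 ± 3.60 CPM. Ptprc, the leukocyte antigen CD45, stood at 16.1 ± 1.40 CPM, whereas the T cell gene Cd3e stood at 0.234 CPM and the neutrophil gene Ly6g had no count in any library, which allows at most 3 counts per library. Cd163, a scavenger receptor of resident macrophages, read 9.17, 14.1, 23.6 and 26 CPM, while Kit, the stem cell factor receptor found on mast cells and melanocytes, read 39.4, 25.9, 9.63 and 8.18 CPM, so these genes had opposite orders. Of the neuron genes none reached 10 CPM on average, with Stmn2 highest at 1.41 CPM. Tcf21, a marker of white fat precursors, also had no count in any library. Hoxc9 and Hoxc10, which are expressed in white depots of the hind body, stayed under the level of 3 counts in each library.

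Skeletal muscle genes were the least even of these groups. The 16 muscle markers summed to 0.309%, 0.894%, 0.0283% and 0.0109% of counts in WT1, WT2, WT3 and WT4, an 81.6-fold range, whereas the sums of the endothelial, mural and Schwann cell lists ranged by 1.11-fold to 1.13-fold. Other lists lay between these. The neutrophil and mast cell sum ranged by 3.65-fold and the white adipocyte sum by 2.24-fold, both highest in WT1. The erythroid and hepatocyte sums ranged by 2.12-fold and 2.07-fold, both highest in WT3. The fibroblast and progenitor sum ranged by 1.5-fold, highest in WT2. Only 1 member reached 10 CPM in the neutrophil and mast cell list (Kit) and in the hepatocyte list (Cyp2e1). Each of those sums rests mainly on 1 gene and does not measure a cell type. Ttn, the giant sarcomere protein titin, read 1929, 5525, 138 and 59.2 CPM. Acta1, the actin of muscle fibres, read 134, 443, 14.7 and 4.05 CPM. Of the 15 markers that reached 10 CPM, all 15 were highest in WT2 (20.5% of all genes) and next highest in WT1. WT1 and WT2 were the highest libraries for 36.1% of all genes. The remaining member, Tnnc2, was near the detection limit. The part of this RNA in other differences between the libraries was not tested.

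Transcripts were concentrated in genes of the respiratory chain and of fat synthesis. The protein-coding gene with the most counts was mt-Co1 (ENSMUSG00000064351, mitochondrial genome, 5328 to 6872), the catalytic subunit of cytochrome c oxidase, at 42587, 44016, 41757 and 42846 CPM. Its level differed by 1.05-fold at most between mice, and its 42802 CPM mean corresponded to 4.18% to 4.40% of counts. Scd1 followed at 21055 ± 9412 CPM and Fasn, fatty acid synthase, at 15415 ± 6485 CPM (SD, n = 4). Both had wide spreads, which is described with the other lipogenic genes below. Next came mt-Cytb at 8985 ± 453 CPM and mt-Nd1 at 7261 ± 387 CPM, subunits of respiratory complexes III and I.

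Pck1, at 6891 ± 1146 CPM, and Gpd1, at 6442 ± 665 CPM, were 7th and 9th among protein-coding genes. Both lie on the route that makes glycerol 3-phosphate, the backbone onto which fatty acids are loaded. Atp5b, the catalytic subunit of ATP synthase, stood at 6851 ± 353 CPM between them, and Ucp1, whose product bypasses that enzyme, was 10th at 5526 ± 2270 CPM. Fabp4, mt-Nd5, Lpl, Car3, Atp5a1, Acsl1, mt-Nd2, mt-Nd4, Dgat2 and Cfd were also among the first 20. Among them, Lpl (lipoprotein lipase), Acsl1 (a fatty acyl-CoA synthetase) and Dgat2 (the last step of triglyceride synthesis) handle fatty acids, Car3 is a carbonic anhydrase of adipocytes, and Cfd encodes the secreted protease adipsin.

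The 10 protein-coding genes with the highest mean CPM held 14.4%, 12.6%, 11.6% and 12.6% of counts, or 12.8 ± 1.17% (SD, n = 4). The first 100 held 29.5 ± 0.956%. It took 548 to 593 genes to reach 50% of the counts and 2409 to 2601 genes to reach 75%. Of 21474 protein-coding genes, 15246 were read in all 4 libraries, 11797 reached 1 CPM in each, and 3808 had no count in any.

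**Figure D1:**
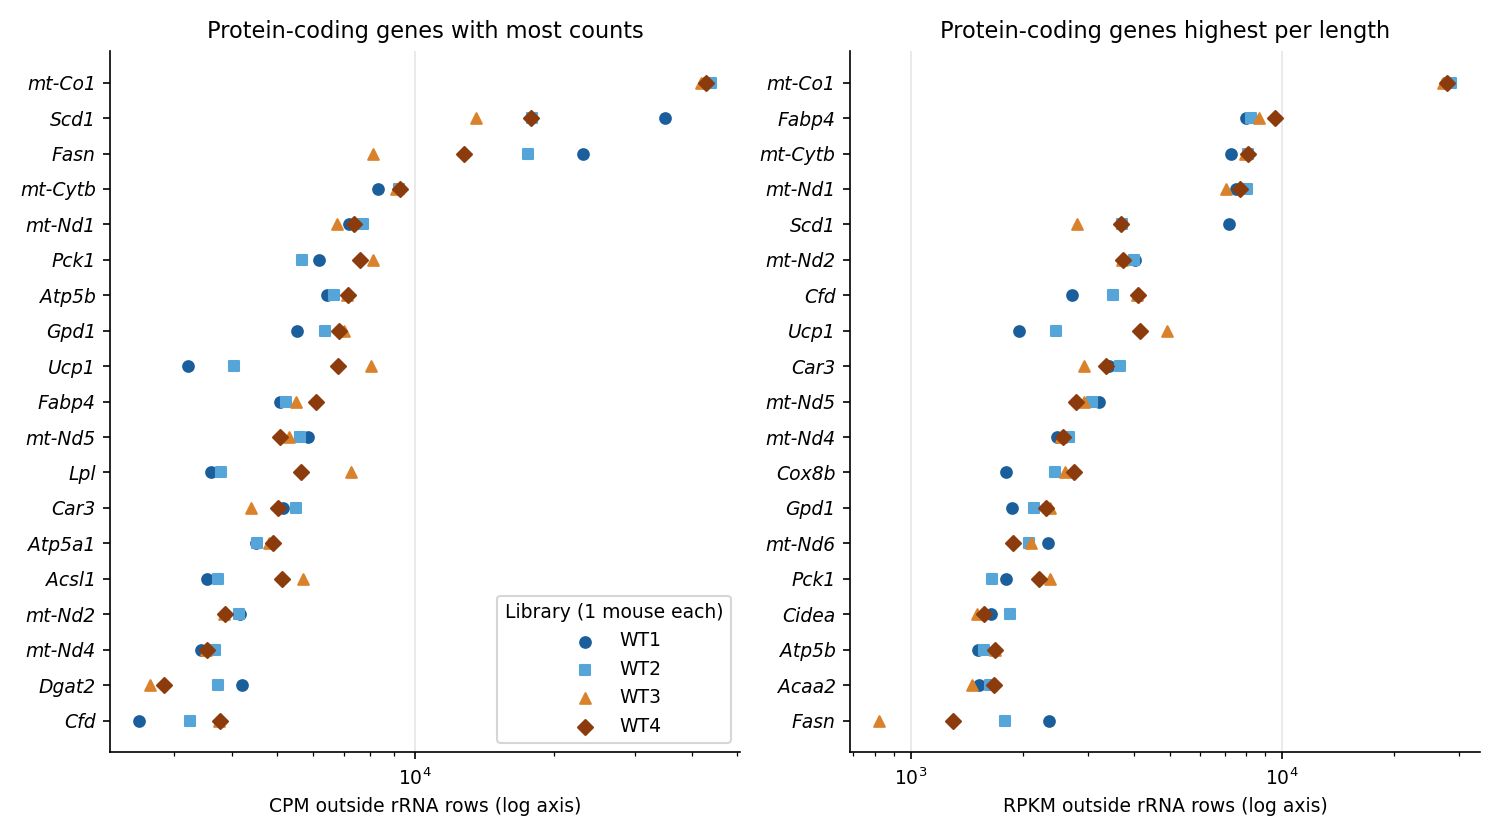
Protein-coding genes from the 20 with the highest mean CPM (left) and the 20 with the highest mean RPKM (right), 1 point per library, both on log axes. Points of mt-Co1 lie on top of each other, while those of Scd1, Fasn, Ucp1 and Lpl spread by 2.01-fold to 2.87-fold.

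Dividing by length moved small proteins up. On the RPKM scale mt-Co1 still led at 27703, and Fabp4 went from 11th to second at 8610 RPKM, ahead of mt-Cytb at 7854 and mt-Nd1 at 7587 RPKM. Ucp1 was 8th at 3361 RPKM, above Car3 at 3338 and below Cfd at 3594 RPKM, and these neighbours did not differ beyond the spread of Ucp1 across mice (1957, 2460, 4887 and 4142 RPKM). Cox8b, a short cytochrome c oxidase subunit found in brown fat and muscle, went from 117th by CPM to 12th at 2402 RPKM. Fasn, with the longest transcript of the first 20, went from the third place to the 20th at 1565 RPKM. In all, 16 genes were in the first 20 on both scales.

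Outside protein-coding genes, Malat1, a nuclear long non-coding RNA, was the fourth most abundant gene of any type at 13065, 12905, 14362 and 12812 CPM. Gm14236 (chromosome 2, 168010529 to 168011506) at 3044 ± 494 CPM and Gm26917 (chromosome 17, 39845074 to 39846245) at 2937 ± 382 CPM also ranked high and carry only predicted names. They were named after their values were seen. Antisense genes held 0.450% to 0.576% of counts, and since no source used here states the strand setting, reads from a gene and its antisense partner cannot be told apart.

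Several genes of the mitochondrial genome had few or no counts. Of its 13 protein genes, 7 reached 10 CPM and summed, with the rest, to 7.31 ± 0.169% of counts. mt-Co2, mt-Atp8 and mt-Nd4l had no count in any library, and mt-Co3 and mt-Atp6 stayed under 3 counts in each. For mt-Co2, mt-Co3, mt-Atp6, mt-Nd3 and mt-Nd4l, 98.0% to 100% of the distinct 50-base words in the transcript also occur in another gene. The overlap did not match the missing counts in every case: mt-Atp8 shares none of its words, and mt-Co1, the highest gene of all, shares 51.1%. No source used here states how reads with several matches were counted. Among protein-coding genes that share 75% to 100% of their 50-base words, 2.02% reached 10 CPM. This share was 49% of those that share up to 25% and 38.2% of those that share none. Whether such genes lost reads or were little expressed was not tested. As the counting of reads with several matches is not stated, the level of a gene with close copies is uncertain. An example is Gapdh at 31.5 ± 2.57 CPM, with 25.1% of its words shared.

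Brown fat expressed 1 dominant member in many gene families. Across 68 families with 247 genes, the member with the highest RPKM was the same in all 4 mice in 62. In 44 families it stood 2-fold or more above the next member in every mouse, in 19 10-fold or more, and in 18 it held more than 90% of the family's RPKM in every mouse. These counts take the levels as read, and the level of a member with close copies is uncertain. No test of these orders is reported, because an exact sign-flip test over 4 mice cannot reach the usual threshold.

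Families of heat production and fuel use are given first. Ucp1 held 97.4 ± 0.43% of the RPKM of the uncoupling proteins (SD, n = 4), with Ucp3 at 79.4 RPKM and Ucp2 at 5.24 RPKM. Fabp4 held 96.9% of the fatty acid binding proteins, ahead of Fabp3 at 273 RPKM. Scd1 stood 139-fold to 599-fold above Scd2, the form that prevails in brain, which was at 21.9 RPKM. Among hexokinases, which trap glucose in the cell, Hk2 held 97.4% at 157 RPKM, and Hk1 was at 3.65 RPKM. Slc2a4, the insulin-responsive glucose transporter GLUT4, held 89.7 ± 0.51% of its family at 157 RPKM, about 15.1-fold to 15.5-fold above Slc2a8, and Slc2a1 was at 4.39 RPKM. Aldoa at 861 RPKM held 99.9% of the aldolases, and Pkm at 365 RPKM led the pyruvate kinases by more still. Dio2, which turns thyroxine into the active hormone, was the only deiodinase above 1 RPKM, at 148 RPKM.

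In the respiratory chain, the tissue-specific forms were mixed with the general ones. Cox7a1, the form of heart, muscle and brown fat, stood at 916 RPKM and held 69.8 ± 0.68% of its family, with Cox7a2 at 302 RPKM. Cox8b stood at 2402 RPKM against 1316 RPKM of Cox8a, the general form. For subunits 6a and 4 the general forms led: the general Cox6a1 was at 1251 RPKM and the muscle form Cox6a2 at 3.83 RPKM, and Cox4i1 stood at 818 RPKM against 3.15 RPKM of Cox4i2.

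Receptors and signalling proteins had leaders of varying weight. Adrb3, the beta-adrenergic receptor typical of adipocytes, held 79.3 ± 5.13% of the beta receptors at 83.2 RPKM, with Adrb1 at 16.8 RPKM. Adra1a led the alpha receptors at 44.1 RPKM. Below the receptors, Adcy6 at 70.8 RPKM stood above Adcy3 at 50.8 RPKM in every mouse, by 1.07-fold to 1.96-fold. Prkar2b, at 484 RPKM, held 89.6% of the regulatory and Prkaca, at 127 RPKM, 83.8% of the catalytic subunits of protein kinase A. Pde3b and Pde4d, which break down cyclic AMP, led their families at 113 and 30.3 RPKM. Among the sirtuins, which consume NAD+, the mitochondrial Sirt3 led at 43.4 RPKM with 46.4 ± 1.1% of the family, ahead of Sirt2 at 16.6 RPKM.

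The leading member changed from mouse to mouse in 6 families. Ppargc1a and Ppargc1b encode coactivators that raise mitochondrial and thermogenic genes. Ppargc1a read 28.0, 56.4, 80.6 and 82.8 RPKM and Ppargc1b 45.1, 39.5, 36.4 and 36.9 RPKM, so that Ppargc1b led in WT1 only. For fatty acid transport, Slc27a1 led in WT1 and WT2 and Slc27a2 in WT3 and WT4, with means of 102 and 94.5 RPKM. Rxrb led the retinoid X receptors in WT1 and WT2 and Rxrg in WT3 and WT4, at means of 21.4 and 23.0 RPKM. In WT2, the library with the highest muscle markers, the muscle forms Eno3 and Ckm stood above Eno1 and Ckb. Col1a1 and Col1a2 were within 1.09-fold of each other in each mouse. Without division by length, 66 of the 68 families kept 1 leader in all mice, and in 7 families the leading member was another one in at least 1 mouse. Among these were the PPARs, where Pparg led per length and Ppara by CPM.

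**Figure D2:**
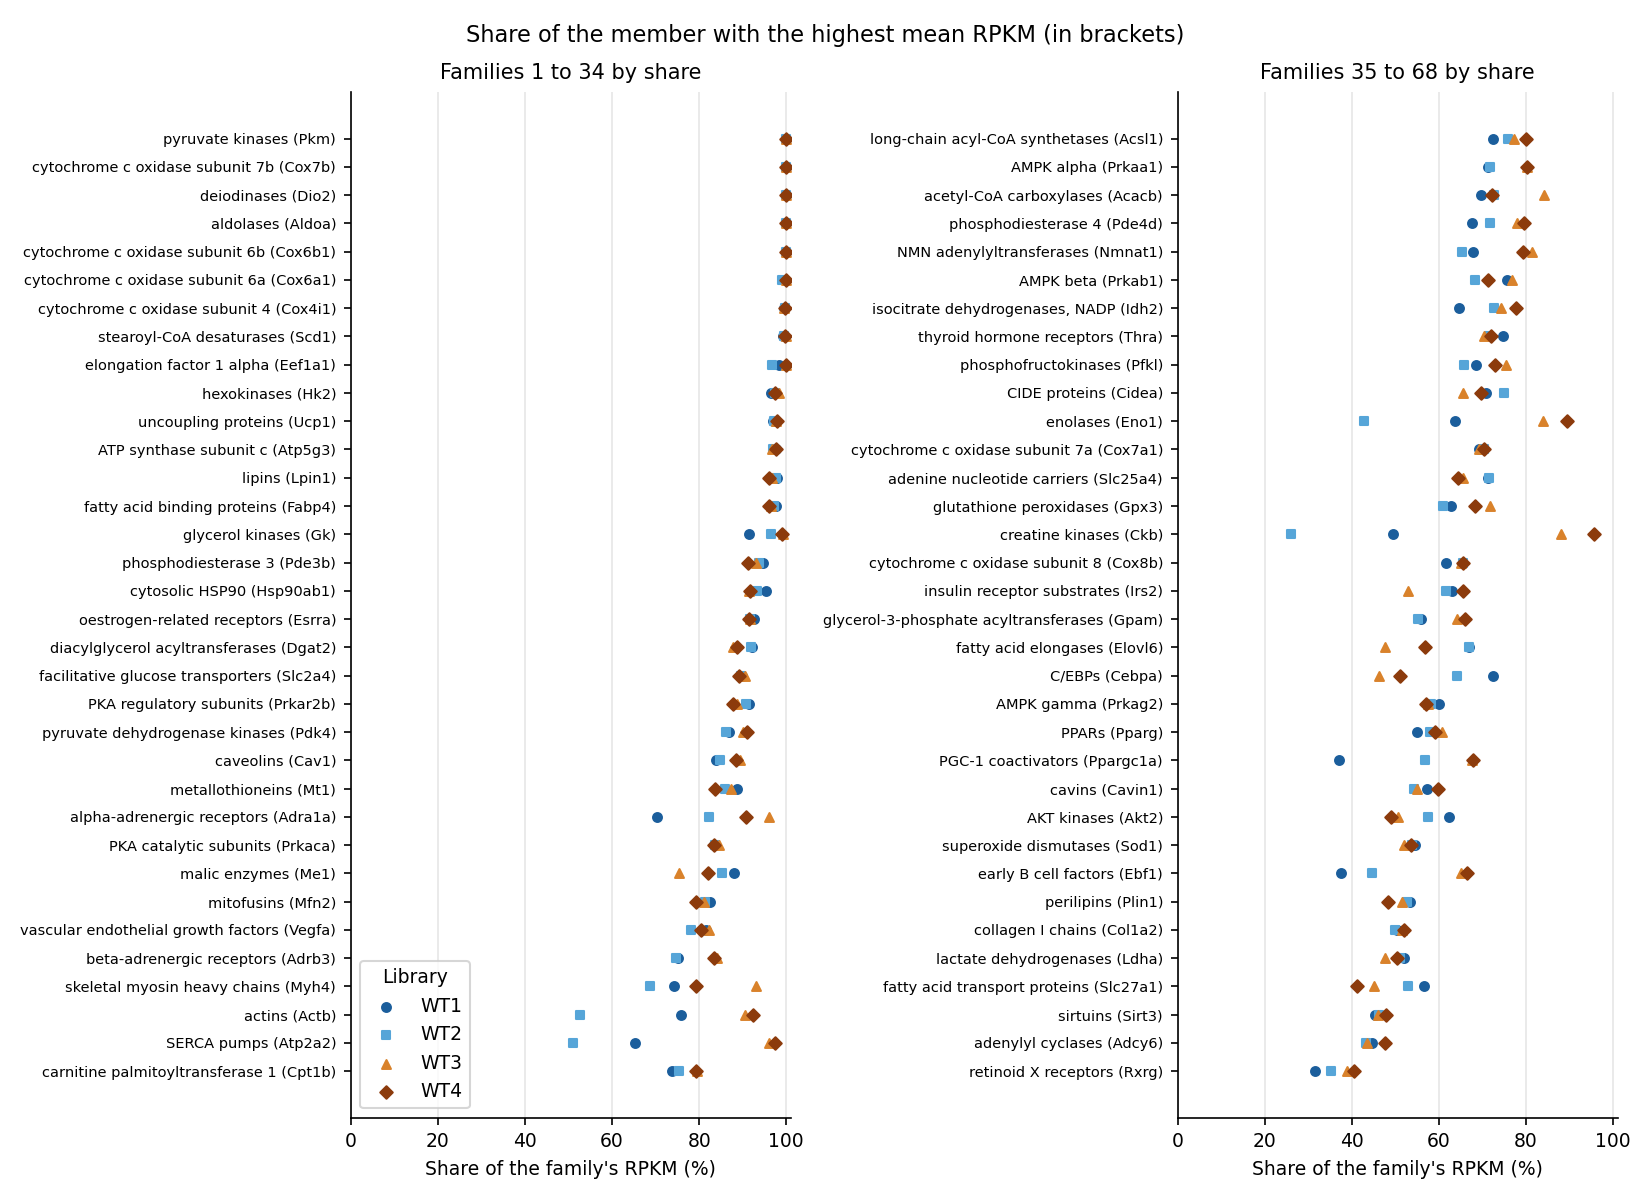
Share of each family's summed RPKM held by its member with the highest mean RPKM (in brackets), 1 point per library, for 68 families ordered by mean share. In most families the 4 points lie together, and the creatine kinases, enolases, actins and calcium pumps spread widely, in the libraries where muscle markers also differ.

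The spread of each gene between the 4 mice was described next, beside the spread that counting error alone gives. The CV, the SD over the 4 libraries as a percentage of the mean, had a median of 9.99% over the 8631 genes (interquartile range 6.28% to 16.1%), against 2.83% from counting error. It exceeded 2 times the counting error in 6810 genes (78.9%), a description of separate animals that are not repeat counts of 1 sample. Counting error here leaves out other technical noise, such as that from PCR copies. The highest value was at least 2 times the lowest in 572 genes (6.63%), and within 1.1-fold of it in 1001 (11.6%). Of the 572, the highest libraries were WT1 and WT2 in 371 and WT3 and WT4 in 156, and 325 peaked in WT1. Over all 8631 genes these shares were 36.1%, 30% and 32.2%, against 64.9%, 27.3% and 56.8% of the 572.

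**Figure D3:**
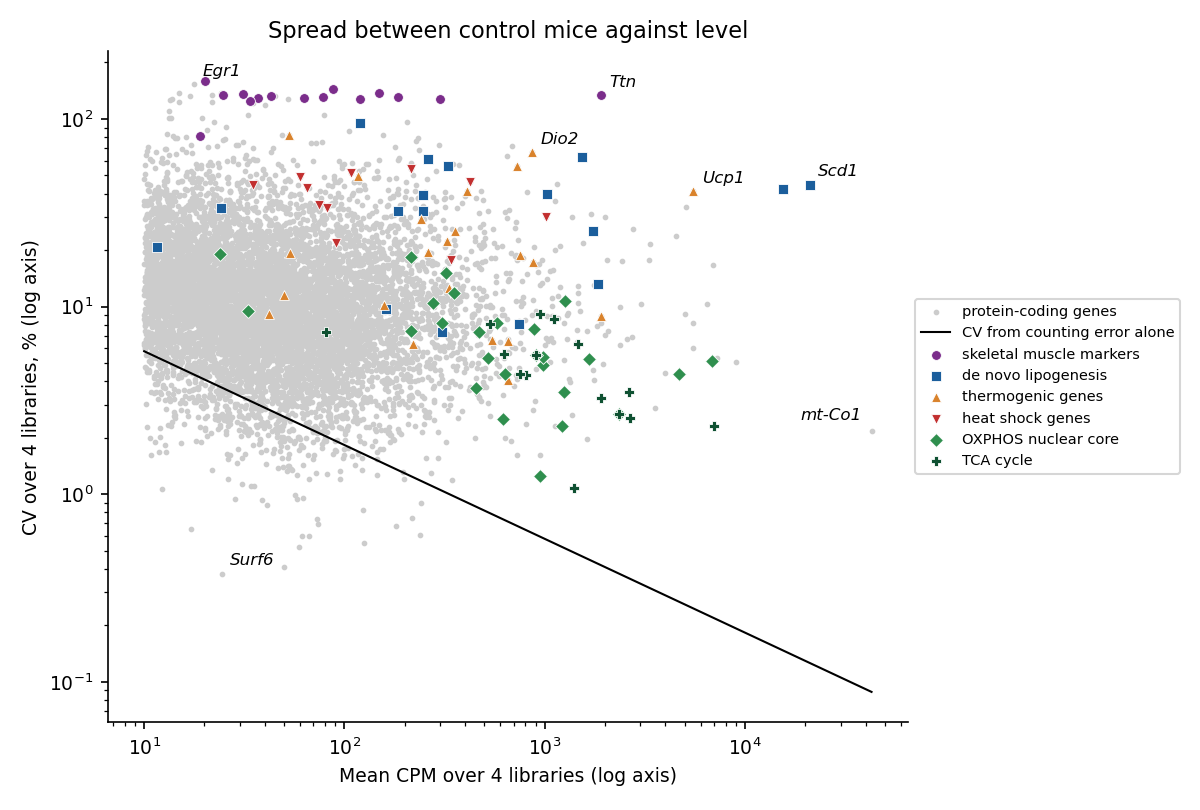
CV over the 4 libraries against mean CPM for 8631 protein-coding genes, both on log axes, with the CV from counting error alone as a line and members of 6 gene lists marked. Muscle markers lie between 81.4% and 159%, lipogenic, thermogenic and heat shock genes lie mostly in the upper part of the cloud, and respiratory chain and citric acid cycle genes in the lower part.

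Genes were ranked by CV after those with predicted names (Gm, Rik or LOC) were set aside, which left 8529. The genes with the highest CV among them were sarcomere genes and 1 immediate early gene. Of the 15 most variable genes, 14 encode muscle fibre proteins, among them Myh7 with a CV of 159%, Myh1 with 145% and Acta1 with 137%. Each of these 14 was highest in WT2 (20.5% of all genes). The other was Egr1, a transcription factor switched on within minutes of a stimulus, which read 58.6 CPM in WT1 and 4.11, 4.28 and 4.28 CPM in WT2, WT3 and WT4. Other immediate early genes shared this pattern in part. Of 11 that reached 10 CPM, 8 were 2-fold or more apart (6.63% of all genes). Junb read 53.0, 16.8, 19.6 and 21.0 CPM, and Nr4a1, a nuclear receptor induced by cyclic AMP, 375, 159, 125 and 224 CPM, both highest in WT1. Nr4a3 differed, with its highest level of 69.0 CPM in WT3.

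Genes that make fatty acids differed widely between the control mice. Of 17 lipogenic genes, 11 were 2-fold or more apart (6.63% of all genes). For 15 of the 17 the highest libraries were WT1 and WT2, as for 36.1% of all genes. The summed share of the 17 was 6.99%, 4.55%, 2.74% and 3.81% of counts. This list thus took up to 2.56 times as much of the transcriptome in one control mouse as in another. In every library the sum rests mainly on Scd1 and Fasn. Acly, which makes acetyl-CoA from citrate in the cytosol, read 2667, 1942, 460 and 1096 CPM. Fasn (chromosome 11, 120805940 to 120824178) read 23191, 17625, 8083 and 12759 CPM. Both had the same order from high to low, WT1, WT2, WT4 and WT3. Scd2 spread most, at 283, 106, 25.5 and 63.3 CPM. Srebf1, the transcription factor of this pathway, read 455, 325, 129 and 134 CPM, while Mlxipl, the carbohydrate-responsive factor, stayed between 292 and 339 CPM and Elovl6, which elongates palmitate, between 693 and 825 CPM. The muscle list was highest in WT2, the lipogenic list in WT1.

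Lipogenic genes also differed within the pairs of similar libraries. Between WT3 and WT4, 3 of the 17 were 2-fold or more apart (0.602% of all genes), namely Acly, Acaca and Scd2. Between WT1 and WT2 only Scd2 was (0.799% of all genes). Genes of cholesterol synthesis and uptake had WT1 and WT2 as the highest libraries for 12 of 14 (36.1% of all genes), with 3 at 2-fold or more (6.63% of all genes) and 2 with TMM or DESeq2 factors. Among the 3 were Insig1 at 355, 177, 113 and 106 CPM and Sc5d at 70.3, 44.6, 37.9 and 34.4 CPM. Hmgcs1 went the other way, with 642 CPM in WT3 as its highest level. Lep, which encodes the adipocyte hormone leptin, read 44.3, 24.2, 3.75 and 10.2 CPM and thus followed the lipogenic order. The transferrin receptor gene Tfrc read 499, 140, 92.5 and 90.9 CPM.

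Thermogenic genes ranged from variable to steady, with a median CV of 19.1%, against 9.99% over all genes. Of 22 at 10 CPM or more, 6 were 2-fold or more apart (6.63% of all genes) and 1 was within 1.1-fold (11.6% of all genes). Dio2 (chromosome 12, 90724554 to 90738438) read 269, 472, 1400 and 1307 CPM, Ppargc1a (chromosome 5, 51454249 to 51567725) 186, 375, 535 and 550 CPM, and Elovl3, an elongase induced by cold, 19.8, 20.5, 112 and 59.2 CPM. Gk, glycerol kinase, which lets brown fat reuse glycerol, read 290, 483, 1160 and 966 CPM. Like Ucp1, these were lower in WT1 and WT2 than in WT3 and WT4. Ebf2, a factor that marks the brown lineage, went the other way, at 170, 166, 63.2 and 70.3 CPM. Among the steadier members, Cidea was within 1.22-fold, Ppara within 1.15-fold, Esrra within 1.16-fold and Letmd1 within 1.09-fold. Of the markers of lineage rather than activity, Zic1 stood at 7.50 ± 0.850 CPM and Lhx8 at 3.80 ± 0.0427 CPM, under the 10 CPM limit. Bmp8b, also under it on average, read 1.18, 2.30, 10.8 and 11.2 CPM.

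The promoters of Ucp1, Dio2 and Ppargc1a, 3 thermogenic genes that respond to cyclic AMP, are shown. All 3 were lower in WT1 and WT2 than in WT3 and WT4. Ucp1 and Dio2 were highest in WT3 and Ppargc1a in WT4. The 250 bases before the RefSeq start (GRCm38.p6) were searched on both strands for TGACGTCA, the full cyclic AMP response element, and for TGACG, its core, which lies within the full one. Capitals mark the match. The windows are chr8:83290098-83290347 on the plus strand, chr12:90739039-90739288 on the minus strand and chr5:51567726-51567975 on the minus strand, and the RefSeq start of Dio2 lies outside the gene span given in the files.
Ucp1: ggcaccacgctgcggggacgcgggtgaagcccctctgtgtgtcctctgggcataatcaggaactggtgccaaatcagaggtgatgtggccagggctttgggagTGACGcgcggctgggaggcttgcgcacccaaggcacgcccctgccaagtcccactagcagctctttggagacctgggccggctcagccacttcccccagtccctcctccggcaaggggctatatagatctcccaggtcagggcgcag
Dio2: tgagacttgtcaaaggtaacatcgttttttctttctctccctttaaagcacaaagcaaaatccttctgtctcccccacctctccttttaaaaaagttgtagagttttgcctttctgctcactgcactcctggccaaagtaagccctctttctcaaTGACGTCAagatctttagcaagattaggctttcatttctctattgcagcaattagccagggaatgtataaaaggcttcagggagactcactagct
Ppargc1a: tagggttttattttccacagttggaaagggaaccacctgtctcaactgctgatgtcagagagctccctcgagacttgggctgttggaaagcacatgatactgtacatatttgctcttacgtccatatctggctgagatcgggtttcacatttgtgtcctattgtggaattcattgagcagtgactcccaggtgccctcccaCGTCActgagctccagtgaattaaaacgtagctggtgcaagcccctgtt
Ucp1 held TGACG 147 bases before the start, Dio2 the full element 95 bases before it, and Ppargc1a the core on the other strand 49 bases before it. The full element was present in 1 of 19 thermogenic genes with a listed promoter (Dio2) and in 1.77% of 27025 genes, and the core in 5 of 19 and in 19.8%. Fgf21 and Ppara, whose level hardly moved, also held the core. It was present in 10 of 12 immediate early genes, among them Junb and Nr4a1, both highest in WT1, and in 5 of 13 citric acid cycle genes. A match is a description of letters in this window, not a measured binding site. Its part in the order of the libraries was not tested.

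The signalling genes upstream of these targets were also described. Of 21 genes of beta-adrenergic signalling and lipolysis, 4 were 2-fold or more apart (6.63% of all genes). With TMM or DESeq2 factors 6 were. Adrb3 read 335, 179, 194 and 254 CPM and Adrb1 71.5, 36.0, 26.5 and 33.5 CPM, both highest in WT1, the mouse with the least Ucp1. Adcy3 read 186, 243, 477 and 362 CPM and thus followed Ucp1. Abhd5, the activator of the lipase ATGL, read 98.1, 139, 196 and 227 CPM. The lipases and their coat protein were even: Pnpla2, which encodes ATGL, stood at 1326 ± 54.2 CPM, Lipe, hormone-sensitive lipase, at 1085 ± 120 CPM, and Plin1, which coats the droplet, at 1344 ± 53.2 CPM (SD, n = 4). Gnas, the stimulatory G protein, stood at 296 ± 11.6 CPM.

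General adipocyte genes had a median CV of 10.9%, against 9.99% over all genes. Of 20, 3 were 2-fold or more apart (6.63% of all genes), namely Lpl, Lep and Cebpa. Cebpa, a transcription factor of fat cell differentiation, read 1229, 927, 498 and 603 CPM, highest in WT1, and Lpl 3604, 3781, 7246 and 5663 CPM, highest in WT3. Pparg, the nuclear receptor at the centre of that programme, stood at 403 ± 29.0 CPM (SD, n = 4) and was within 1.18-fold.

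Heat shock genes, which encode chaperones that refold proteins, were lower in WT1 than in WT3 and WT4. Of 11, 8 were 2-fold or more apart (6.63% of all genes), or 9 with TMM or DESeq2 factors. WT3 and WT4 were the highest libraries for 9 of the 11, as for 30% of all genes. Hsph1 read 66.9, 175, 316 and 300 CPM and Hspa8, the constitutive HSP70, 207, 314, 593 and 587 CPM. Hspb1, the small heat shock protein HSP25, read 28.5, 44.2, 71.7 and 95.0 CPM. Hspa1b broke the order, at 23.6, 82.0, 76.9 and 78.8 CPM, and its near-identical copy Hspa1a read 18.7, 56, 32.3 and 32.6 CPM; with 62.3% and 66.3% of their 50-base words shared, the pair is uncertain. Hsp90ab1, often treated as constitutive, read 680, 835, 1281 and 1267 CPM.

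The promoters of Hspb1 (chr5:135887669-135887918, plus strand) and Hspa1b (chr17:34959239-34959488, minus strand) are shown for the heat shock element GAANNTTC, the unit bound by heat shock factors, in capitals. They were searched on both strands in the same RefSeq window.
Hspb1: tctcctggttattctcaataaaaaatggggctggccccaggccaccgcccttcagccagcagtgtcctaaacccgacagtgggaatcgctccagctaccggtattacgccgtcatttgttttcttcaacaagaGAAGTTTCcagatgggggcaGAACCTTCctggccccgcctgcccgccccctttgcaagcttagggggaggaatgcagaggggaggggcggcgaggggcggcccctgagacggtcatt
Hspa1b: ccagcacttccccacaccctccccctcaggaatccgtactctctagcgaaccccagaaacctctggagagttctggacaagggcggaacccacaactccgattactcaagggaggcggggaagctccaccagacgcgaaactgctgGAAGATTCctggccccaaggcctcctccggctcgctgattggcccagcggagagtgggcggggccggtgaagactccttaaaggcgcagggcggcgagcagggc
Hspb1 held the element 2 times, 117 and 97 bases before the start, and Hspa1b once, 104 bases before it. Of 8 heat shock genes with a listed promoter, 5 held it, against 7.73% of 27025 genes. The element has few fixed letters, and these matches are letters only.

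Genes that respond to glucocorticoids and fasting, and part of the clock, had the same leading libraries. Of 11 glucocorticoid and fasting responsive genes, 7 were 2-fold or more apart (6.63% of all genes), or 9 with TMM or DESeq2 factors. WT3 and WT4 were the highest libraries for 8 of the 11 (30% of all genes). Fkbp5, a cochaperone of the glucocorticoid receptor, read 5.86, 17.2, 49.1 and 45.9 CPM, Zbtb16 46.5, 102, 324 and 247 CPM, and Tsc22d3, a glucocorticoid-induced leucine zipper protein, 50.2, 78.6, 110 and 98.9 CPM. Angptl4, an inhibitor of lipoprotein lipase, did not follow, with its highest level of 523 CPM in WT1. Of 17 clock genes, 5 were 2-fold or more apart (6.63% of all genes), or 4 with TMM or DESeq2 factors. Per2 read 18.1, 54.3, 109 and 98.4 CPM, Nfil3 23.6, 34.5, 97.5 and 65.1 CPM and Arntl 15, 15.4, 33.7 and 39.4 CPM. Per3 at 88.9, 51.4, 40.7 and 32.7 CPM was higher in WT1 and WT2, while Rora, Tef and Cry1 stayed within 1.36-fold. No source used here states the hour of tissue collection or the feeding state at that hour, and their part was not tested.

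**Figure D4:**
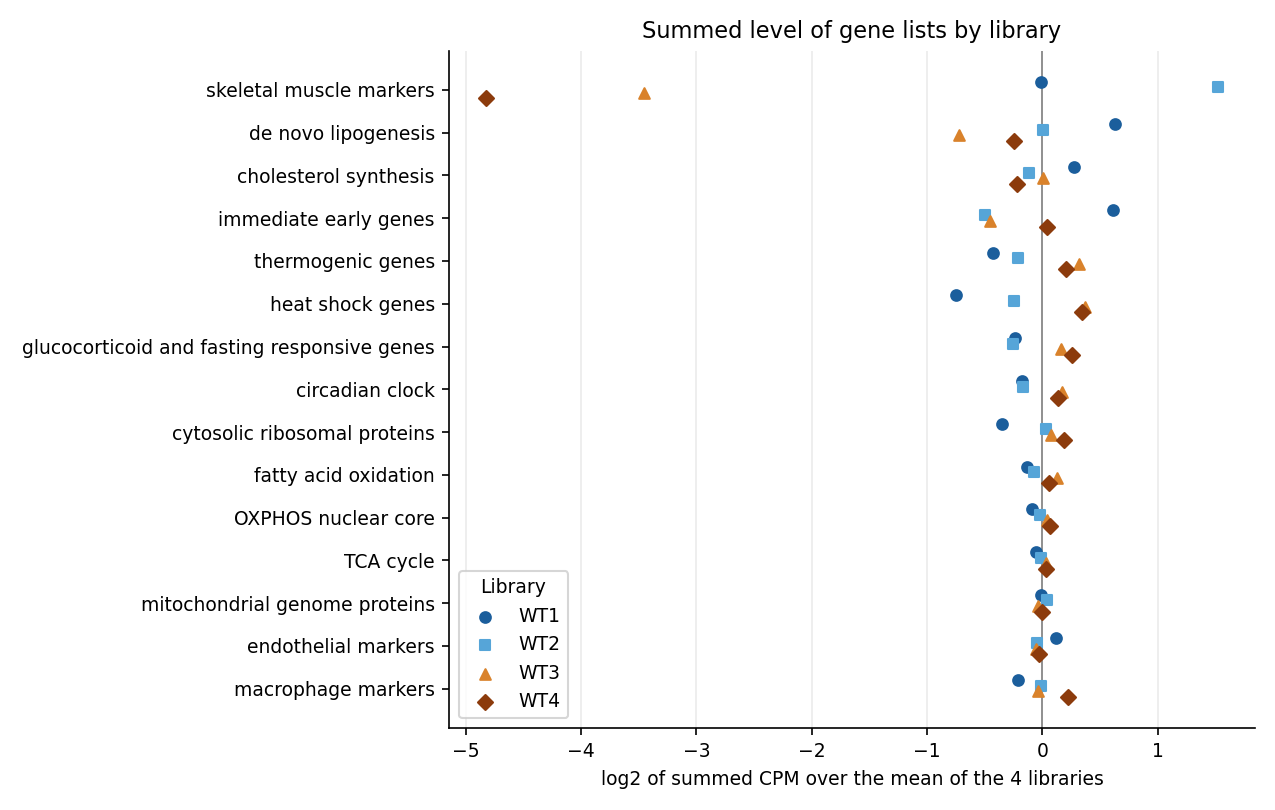
Summed CPM of 15 gene lists in each library, as log2 of the ratio to the mean of the 4 libraries. The muscle list spans 81.6-fold; the lipogenic list is highest in WT1, the thermogenic, heat shock and glucocorticoid lists are higher in WT3 and WT4 than in WT1 and WT2, and the citric acid cycle and mitochondrial genome lists lie close to 0 on this scaling; with TMM factors the highest library of the mitochondrial genome list is WT4 and not WT2.

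Genes of the mitochondrial energy pathways differed little in size between mice, though many had the same lowest library. Of 26 nuclear genes of the respiratory chain none was 2-fold apart (6.63% of all genes), and 7 were within 1.1-fold in all mice (11.6% of all genes). The median CV of the 26 was 5.45%, against 9.99% over all genes. WT1 was the lowest library for 23 of the 26, as for 39.0% of all genes, and their sum ranged by 1.11-fold. Ndufs1, a complex I subunit, stood at 955, 928, 950 and 938 CPM. Sdha, the flavoprotein of complex II, stood at 2313, 2282, 2427 and 2347 CPM. The citric acid cycle was as even, with 6 of 15 genes within 1.1-fold (11.6% of all genes) and a median CV of 4.37%. Dlst, a subunit of the oxoglutarate dehydrogenase complex, stood at 1388, 1419, 1416 and 1394 CPM. Of 18 genes of fatty acid oxidation 5 were within 1.1-fold (11.6% of all genes) and none 2-fold apart (6.63% of all genes). Acsl1 was the most variable of the 18 at 3522, 3723, 5715 and 5148 CPM. WT1 was lowest for 12 of the 18 (39.0% of all genes) and WT3 highest for 13 (27.6% of all genes). The sum of the 18 ranged by 1.20-fold. These small differences hold for values scaled to the counts outside rRNA rows. With edgeR TMM factors, the median CV was 9.37% for the respiratory chain and 8.17% for the citric acid cycle, against 10.9% over all genes. The genes within 1.1-fold then numbered 0 and 1, and 1 for fatty acid oxidation (9.66% of all genes). With DESeq2 size factors they numbered 0 and 0, and 1 for fatty acid oxidation (9.73% of all genes).

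The respiratory chain genes with the highest CV were Cox7c, Cox5b and Atp5o. Cox5b read 163, 222, 217 and 259 CPM, Cox7c 17.9, 23.4, 28.3 and 26.7 CPM and Atp5o 253, 332, 328 and 369 CPM, each lowest in WT1. None of the 22 cytosolic ribosomal protein genes that reached 10 CPM was 2-fold apart (6.63% of all genes), and 1 was with TMM or DESeq2 factors. The sum of that list was also lowest in WT1, at 0.161%, 0.209%, 0.216% and 0.234% of counts in the 4 libraries. Rpl8 read 199, 263, 275 and 306 CPM. Across all 227 genes under 1 kb, the median level relative to the gene's mean over the mice was -0.18 on the log2 scale in WT1 and 0.11 in WT4, and for the 1302 genes of 8 kb or more it was 0.04 and -0.05. Length, depth and mouse cannot be told apart here.

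Among the same 8529 genes, the single genes with the lowest CV were Surf6, at 24.4, 24.6, 24.4 and 24.4 CPM, Ubr7, at 49.5, 49.5, 49.9 and 49.8 CPM, and St3gal3, at 58.7, 59.4, 59.0 and 59.3 CPM. The first encodes a nucleolar protein, the second a ubiquitin ligase and the third a sialyltransferase. All 15 genes with the lowest CV, 0.377% to 0.902%, lay below their own counting error, so the order among them was not resolvable at this depth. Adipor1, a receptor for adiponectin, was among them at 241 CPM. Under TMM factors the CV of these 15 genes was 4.16% to 4.95%. Of the 1001 genes within 1.1-fold, 327 were also within it under TMM factors and 347 under DESeq2 size factors, whereas of the 572 genes 2-fold apart 482 and 474 were. The TMM factors ran from 0.962 in WT4 to 1.04 in WT2. Such a shift takes up much of a 1.1-fold window and little of a 2-fold one. The overlaps therefore depend on the width of these limits and do not rank steady against variable genes.

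Among 18 genes that are often used as references in quantitative PCR, 5 were within 1.1-fold (11.6% of all genes). Among the 5 were Hprt at 35 ± 0.642 CPM, Sdha, Tbp at 26.9 ± 1.02 CPM and Ywhaz at 26.4 ± 0.977 CPM (SD, n = 4). Tbp, the TATA-binding protein, and Ywhaz, a 14-3-3 protein, were within 1.1-fold under TMM and DESeq2 factors too. Hprt and Sdha were not, at 1.13-fold and 1.15-fold with TMM factors. Gusb, 1.16-fold apart here, was within 1.1-fold with either set of factors. Actb stood at 1013, 1005, 936 and 1103 CPM. The ribosomal protein genes Rplp0 and Rpl13a and the isomerase Ppia were lowest in WT1 and highest in WT4, by 1.47-fold, 1.58-fold and 1.52-fold. Tfrc, 5.48-fold apart, was the least even. Eef2, an elongation factor, read 1267, 1372, 1602 and 1618 CPM, and B2m stood at 392 ± 45.6 CPM. Pgk1 and Rps18 stood at 22.5 and 18.3 CPM, with 53.9% and 23.7% of their words shared with other genes.

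**Figure D5:**
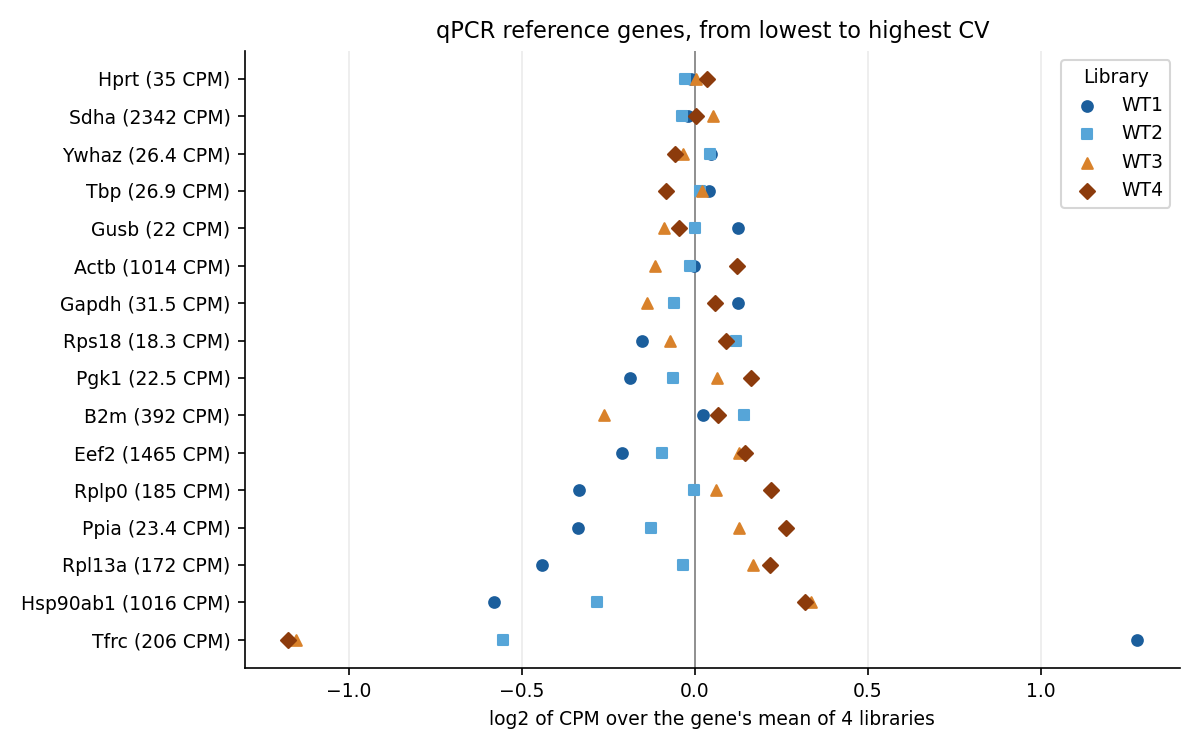
CPM of reference genes in each library as log2 of the ratio to the gene's own mean, ordered by CV from lowest (Hprt) to highest (Tfrc); mean CPM in brackets. Points of Hprt and Sdha lie close to 0 on this scaling but are over 1.1-fold apart with TMM or DESeq2 factors, while Hsp90ab1 is lowest and Tfrc highest in WT1.

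The floxed gene itself was even across the control mice. Nampt (ENSMUSG00000020572, chromosome 12, 32820335 to 32853369, plus strand) stood at 462, 469, 520 and 453 CPM, or 476 ± 29.9 CPM and 105 RPKM. Per length it was the second highest of 14 genes of NAD metabolism, after Slc25a51, the mitochondrial NAD+ carrier, at 129 RPKM, and ahead of Nadk, which phosphorylates NAD+, at 96.3 RPKM. Slc25a51 read 509, 608, 926 and 792 CPM, lowest in WT1. Enzymes of the other routes to NAD+ were much lower per length: Naprt, which uses nicotinic acid, at 18.1 RPKM, Nmrk1, which uses nicotinamide riboside, at 3.35 RPKM, and Qprt, on the route from tryptophan, at 0.179 RPKM. Of the enzymes that complete NAD+ from its mononucleotide, the nuclear Nmnat1 stood at 6.59 RPKM and Nmnat3 at 2.49 RPKM. Of 10 genes of the list at 10 CPM, 2 were 2-fold apart (6.63% of all genes), Nmnat3 and Nnmt. Nmnat3 read 21.0, 15.8, 5.78 and 7.24 CPM. Nnmt, which methylates nicotinamide, read 19.8, 21.3, 55.7 and 48.1 CPM.

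Extracellular matrix genes had a median CV of 17.4%, and 2 of 20 were 2-fold apart (6.63% of all genes). Col4a1 and Col4a2, the chains of basement membrane collagen, stood at 1196 ± 253 and 678 ± 131 CPM, or 175 and 103 RPKM, and Sparc, a collagen-binding matrix protein, at 170 RPKM. The fibrillar Col3a1 read 643, 693, 385 and 480 CPM. Lamb1 and Lama4, both laminin chains, were 2-fold apart, the first lowest and the second highest in WT1, at 316, 504, 546 and 726 CPM and at 327, 305, 147 and 207 CPM. The 24 proteasome genes that reached 10 CPM were all within 1.42-fold, and the 4 interferon-stimulated genes that did were within 1.91-fold.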

How the data were processed

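RNA from brown adipose tissue of 8 mice was sequenced after rRNA depletion; the 4 control libraries were used here. Per the submitters' processing notes, reads were handled with STAR 2.0.4b and featureCounts 1.45 of Subread on mouse genome GRCm38; no source used here states the annotation release, the strand setting or the treatment of reads with several matches. The deposited values are raw read counts per gene, CPM and RPKM, per the file headers. CPM and RPKM recomputed from the deposited counts equalled the deposited ones to within 1e-09.

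CPM and RPKM were then recomputed without 355 rRNA rows, which held 2.83% to 3.53% of counts. Gene names and types came from GENCODE M21, which matched 40340 of 41388 gene IDs. Spread was described over protein-coding genes whose mean reached 10 CPM: the CV, the ratio of highest to lowest library (2-fold or 1.1-fold), and the CV that Poisson counting alone gives. The Poisson CV covers counting error only. PCR copies were not marked, and any noise from them is not part of it. With 21771276 to 49697156 counts per library, median counting error was 2.83%. Sequence shared between genes was measured as 50-base words. No test was made, because the 4 libraries form a single group and n is 4. The scripts were tested on simulated data. Alternatives were edgeR 4.0.16 TMM factors, DESeq2 1.42.0 size factors (R 4.3.3), nuclear genes only, thinned counts, other filters and leaving out each library; leaving out pairs of libraries was chosen after seeing the data. Python 3.11.15 and matplotlib 3.10.9 were used.

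The members and gene lists were chosen with earlier results of these data known. Genes named are the markers and Nampt, the most abundant on each scale, the most abundant of any type and the leading members of families. The extremes of CV among genes without predicted names and members of the lists are named too. Others were chosen after their values were seen. Promoter sequences are from RefSeq. Some genes are not reported here.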

Additional observations from a re-analysis of the deposited data

Results flagged for a closer look

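In 16 of 174 named genes, 1 library stood far from the other 3, by the gap to its nearest neighbour relative to the whole range. Chance gives such a gap in about 1 in 20 groups, and the genes were named with their values known. The libraries with such values are listed without explanation. WT1 stood below the rest for Adipoq at 942 CPM, Adra1a at 303 CPM and Hspa1b at 23.6 CPM. It stood above the rest for Egr1 at 58.6 CPM, Junb at 53 CPM, Kdr at 362 CPM, Rora at 68 CPM and Tfrc at 499 CPM. WT2 stood above the rest for the muscle forms Cox6a2 at 8.29 CPM and Myh7 at 67.4 CPM. WT3 stood above the rest for Malat1 at 14362 CPM, Mlxipl at 339 CPM, Nadk at 403 CPM and Lhx8 at 3.86 CPM, the last with a CV of 1.12% against 9.38% from counting error. Hoxc10 in WT4 at 0.0417 CPM and mt-Atp6 in WT1 at 0.0473 CPM lie under the level of 3 counts.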

How the results depend on the processing

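No paired analysis was possible because only the control group was analysed and no test was made. The count of genes 2-fold or more apart, 572 of 8631, was 1529 with a minimum mean of 1 CPM, 208 with 50 CPM and 3551 with at least 1 count in each library, each over a different number of genes. With counts thinned to the smallest control library the 2-fold count was 574 of 8634. Leaving out 1 library gave 239 to 528, with 239 the value without WT1 and 528 the value without WT2. Without WT1 and WT2 it was 25 and without WT3 and WT4 it was 90. The count within 1.1-fold, 1001, was 563 at 50 CPM, 1476 to 2231 without 1 library (2231 without WT1, 1880 without WT3 and 1728 without WT4), 5336 without WT1 and WT2 and 4779 without WT3 and WT4; fewer libraries give a smaller range by construction. The count above 2 times counting error, 6810, was 3305 at 50 CPM, 6158 to 6777 without 1 library, 4302 without WT1 and WT2 and 4256 without WT3 and WT4. The median CV, 9.99%, was 12.5% at 1 CPM, 8.78% at 50 CPM, 15.3% with at least 1 count in each library, 8.13% to 10.9% without 1 library, 4.88% without WT1 and WT2 and 6.06% without WT3 and WT4. The share of the first 10 genes, 12.8%, was 9.48% over nuclear protein-coding genes, 10.9% for genes chosen by RPKM and 12.3% to 13.3% without 1 library. Families with 1 leader numbered 62 to 65 without 1 library and 66 by CPM. With TMM and DESeq2 factors the 2-fold counts were 523 and 519 and the 1.1-fold counts 833 and 839. Depth limits the order of the least variable genes.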
